A study of Mus musculus with 12 samples.

Results

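The complement and coagulation genes are the 108 genes, of 56691 in the deposited expression table, whose pathway annotation contains ko04610, the KEGG entry for the complement and coagulation cascades. Expression was measured by RNA sequencing of ear tissue from wild-type (WT) mice in 12 libraries, 4 per group. Blank mice were untreated (treatment label None). Model mice were given MC903, an analogue of vitamin D applied to mouse skin to provoke dermatitis, and IsoL mice were given isoliensinine, an alkaloid of the lotus plant. Strain, sex, age, dose and days are not given in the sources used here, nor is it stated whether IsoL ears were also exposed to MC903. No label ties a library to an animal of its own, so p-values measure only the spread between libraries, which may be partly technical.

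Complement is a chain of mostly secreted proteins in which C1q or lectins recognise a surface, proteases of the C1r, C1s and MASP families start cleavage, convertases split C3, and the last components assemble a membrane pore; the released fragments attract leukocytes through receptors. In coagulation, tissue factor with factor VII activates factor X, which with factor V produces thrombin and thereby fibrin, while plasmin, released by plasminogen activators, dissolves the clot. The liver makes most of these plasma proteins, and skin cells and the leukocytes that enter skin make some of them on site.

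The libraries held 13884927 to 18771831 counted reads. The 108 members took 0.261% to 0.276% of the reads of each Blank library, 0.493% to 0.520% in Model and 0.319% to 0.358% in IsoL, so these shares did not overlap between the groups. Skin and ear cartilage markers were present as the tissue label implies: all 6 keratinocyte markers and 3 of 4 cartilage markers passed the expression filter given below, while the cartilage gene Matn1 had 2, 6 and 1 reads over the 4 Blank, Model and IsoL libraries. In whole tissue, fewer cells of a type and less RNA per cell cannot be told apart.

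Of the 108 members, 48 reached 1 FPKM (reads scaled by exon length and library depth) in at least 4 of the 12 libraries and were tested. The other 60 stayed below this filter, 10 of them with no read in any library. Among the tested members, 36 reached 1 FPKM in all 12 libraries. By contrast, 8 tested members (Bdkrb1, Bdkrb2, C5ar1, C6, F10, F5, F7 and Gm49368) reached it in no Blank library; they entered the test through the groups in which they were high, so a difference from Blank was built into their choice, and all 8 rose from Blank to Model. Levels within a gene are given below as depth-scaled counts (CPM) with TMM factors, and levels between genes as FPKM. Differences are log2 fold changes ± SE from edgeR's quasi-likelihood test on the counts, with p-values adjusted over the 15403 genes tested and called under 0.05.

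The comparison of Model with Blank sets MC903-treated against untreated ears. No group is labelled as given a vehicle alone, so MC903 and its application cannot be told apart. In this comparison 36 of the 48 tested members rose, against 35.3% of all genes tested, and 8 fell, against 34.9%. A change in either direction was called for 44 members and for 70.1% of all genes. A rise of 2-fold or more was called for 32 members (14.0% of all genes), and a fall of 2-fold or more for 0 (7.17% of all genes). Both the 36 rises and these 32 include the 8 members that reached 1 FPKM in no Blank library. By comparison, 0 members reached it in Blank libraries only, so the filter favoured rises among the members. In the comparison of IsoL with Model, 35 members were lower in IsoL, against 25.1% of all genes, and 1, Bdkrb2, was higher, against 24.1%; a change in either direction was called for 36 members and 49.3% of all genes. A level at least 2-fold lower in IsoL than in Model was called for 14 members (5.76% of all genes) and one at least 2-fold higher for 0 (2.34%). Both the 35 and the 14 include C6, F5 and Gm49368. These reached 1 FPKM in Model libraries only, so the filter favoured lower levels in IsoL. Between IsoL and Blank, 33 members were higher in IsoL (36.5% of all genes) and 9 were lower (34.0%); on log2(TPM + 1) values these counts were 30 and 14, against 20.98% and 55.63% of all genes. A change in either direction was called for 42 members (70.5% of all genes), a level at least 2-fold above Blank for 24 (11.6%) and one at least 2-fold below for 2 (6.11%). Both the 33 and the 24 include the members that reached 1 FPKM in no Blank library, except C6. The filter thus favoured levels above Blank here too. The median log2 fold change of the tested members was 1.40 for Model against Blank, -0.47 for IsoL against Model and 0.94 for IsoL against Blank, beside -0.01, 0.01 and 0.02 over all genes tested. Each pair of these comparisons shares a group of libraries, so their results are not independent of each other. The libraries of the 2 groups did not overlap for 45 members between Blank and Model (67.4% of all genes), 35 between Model and IsoL (42.7%) and 40 between Blank and IsoL (63.7%). These counts and the medians include the members that entered the test through the groups in which they were high.

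**Figure D1:**
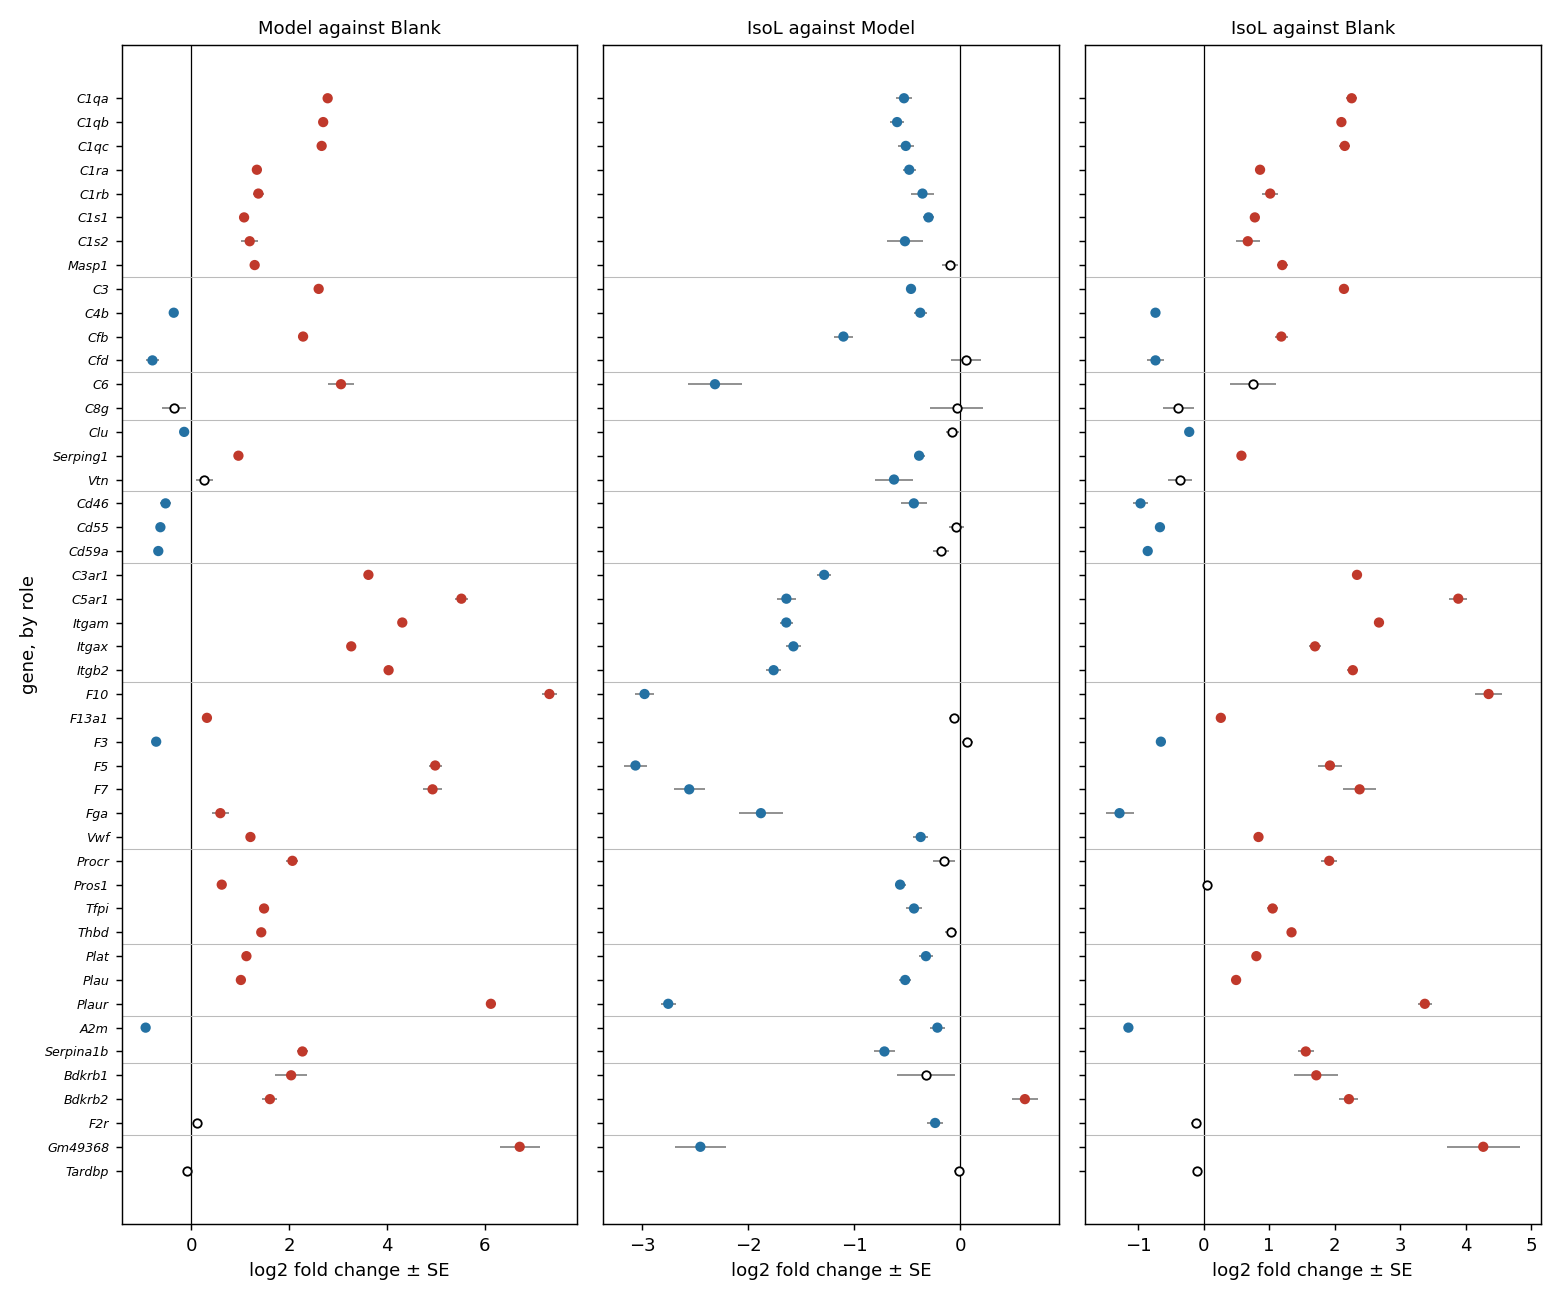
Log2 fold change ± SE of 46 tested members in each comparison, ordered by role; red points rose, blue points fell and open points were not called at an adjusted p of 0.05. Most points lie right of 0 for Model against Blank (34 rose) and left of 0 for IsoL against Model (33 fell), while for IsoL against Blank 31 lie right of 0 as called rises. The points include the 8 members that reached 1 FPKM in no Blank library.

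The genes of clotting factor X, the urokinase receptor, the C5a receptor and factors V and VII were among the largest rises from Blank to Model, together with Gm49368, a predicted gene described with the receptors below. F10, the gene of the protease that turns prothrombin into thrombin, stood at 0.386, 0.284, 0.354 and 0.174 CPM in the Blank libraries, at 51.8, 47.2, 50.5 and 48.4 in Model, and at 5.70, 5.87, 7.81 and 5.83 in IsoL. Plaur, which encodes the receptor that holds urokinase on the cell surface, stood at 2.92, 2.84, 2.89 and 2.79 CPM in Blank, at 208, 189.6, 196 and 209.9 in Model, and at 31.8, 32.8, 30.5 and 24.3 in IsoL. For both genes the 3 groups did not overlap, with IsoL between the others. The log2 fold change from Blank to Model was 7.33 ± 0.15 for F10 and 6.13 ± 0.09 for Plaur (adjusted p = 5.6e-23 for Plaur). From Model to IsoL it was -2.98 ± 0.09 for F10 and -2.75 ± 0.07 for Plaur, a 7.86-fold and a 6.74-fold lower level. F10 reached 1 FPKM in no Blank library, so its difference from Blank was built into its choice.

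F7, which encodes the protease that pairs with tissue factor, lay next to F10 on the same strand of chromosome 8: in the deposited table F7 spans positions 13076034 to 13085809 and F10 positions 13087308 to 13106676, with 1498 bases between them (genome build not given in the sources used here). F7 stood at 0.331, 0.568, 0.472 and 0.639 CPM in Blank, at 15.9, 16.0, 14.2 and 16.1 in Model, and at 2.53, 2.24, 3.71 and 2.14 in IsoL. F5, the cofactor of activated factor X, stood at 0.882, 0.909, 1.0 and 0.929 CPM in Blank, at 35.2, 26.3, 28.4 and 29.5 in Model, and at 3.28, 3.63, 3.65 and 3.69 in IsoL. Neither gene overlapped between any groups. F7 rose by 4.94 ± 0.20 and F5 by 4.99 ± 0.13 on the log2 scale from Blank to Model, and from Model to IsoL they changed by -2.55 ± 0.15 and -3.06 ± 0.11. F5, like C6 and Gm49368, reached 1 FPKM in Model libraries only, so its difference from IsoL was also built into its choice.

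To show what lies upstream of the genes with the largest rises, the promoters of F7, F10, Plaur, C5ar1 and F5 follow, from 250 bases before to 50 bases after the RefSeq gene start (mouse build GRCm38.p6), each 5′ to 3′ on the gene's strand. Capitals mark matches, on either strand, to motifs of factors known from leukocyte and vitamin D gene control: AP-1 (TGANTCA), C/EBP (TTNNGCAA), GAS, the STAT site (TTCNNNGAA), PU.1 (GAGGAA), and the NF-kappaB and VDR DR3 consensus, named only. The motifs were searched independently, and none of the marked matches overlap each other.
F7, chr8:13025784-13026083, plus strand: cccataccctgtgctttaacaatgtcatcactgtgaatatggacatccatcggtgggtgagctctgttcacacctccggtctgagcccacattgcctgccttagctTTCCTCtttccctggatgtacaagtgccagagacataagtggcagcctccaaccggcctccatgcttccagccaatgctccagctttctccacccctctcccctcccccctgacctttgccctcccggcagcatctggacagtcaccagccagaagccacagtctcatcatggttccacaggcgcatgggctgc
F10, chr8:13037058-13037357, plus strand: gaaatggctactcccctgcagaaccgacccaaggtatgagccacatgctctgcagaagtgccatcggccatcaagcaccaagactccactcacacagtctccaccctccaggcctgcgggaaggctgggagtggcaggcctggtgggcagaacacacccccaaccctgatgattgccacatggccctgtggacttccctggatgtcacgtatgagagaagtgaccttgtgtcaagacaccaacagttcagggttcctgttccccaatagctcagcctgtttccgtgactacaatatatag
Plaur, chr7:24462233-24462532, plus strand: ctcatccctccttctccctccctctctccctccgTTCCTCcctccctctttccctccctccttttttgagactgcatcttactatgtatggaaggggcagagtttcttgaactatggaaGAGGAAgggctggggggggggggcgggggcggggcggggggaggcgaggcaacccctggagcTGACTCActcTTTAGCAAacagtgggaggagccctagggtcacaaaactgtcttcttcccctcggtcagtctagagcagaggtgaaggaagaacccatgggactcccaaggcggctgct
C5ar1, chr7:16259289-16259588, minus strand: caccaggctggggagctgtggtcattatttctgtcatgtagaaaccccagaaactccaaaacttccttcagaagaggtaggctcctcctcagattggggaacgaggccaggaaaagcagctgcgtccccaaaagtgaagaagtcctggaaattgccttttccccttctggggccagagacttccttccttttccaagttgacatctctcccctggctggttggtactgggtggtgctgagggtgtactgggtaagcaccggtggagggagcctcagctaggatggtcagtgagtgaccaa
F5, chr1:164151585-164151884, plus strand: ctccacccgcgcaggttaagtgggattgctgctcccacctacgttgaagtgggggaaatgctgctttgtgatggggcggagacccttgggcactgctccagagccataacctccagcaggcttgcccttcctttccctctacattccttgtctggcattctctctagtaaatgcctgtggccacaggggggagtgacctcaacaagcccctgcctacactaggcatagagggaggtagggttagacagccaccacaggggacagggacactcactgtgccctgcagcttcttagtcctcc

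Counting the gene start as position 0, the Plaur promoter held an AP-1 match at -69, a C/EBP match at -59 and PU.1 matches at -216 and -131, and the F7 promoter held a PU.1 match at -144. These letters were not found in the windows of F10, C5ar1 and F5. Promoters were available for 73 of the 108 members and for 32 of the 48 tested ones, as 36 promoter rows. Of these 36, 22.2% held an AP-1 match and 22.2% a C/EBP match, beside 7.81% and 10.8% of the 32851 promoters in the table; 30.6% held a PU.1 match beside 28.3%, 13.9% a GAS match beside 8.30%, and 5.56% an NF-kappaB match beside 8.46%. A VDR DR3 match stood in 0 of the 36 and in 0.0396% of all promoters. A match of letters is a description of the sequence and does not show binding.

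Complement initiators recognise a target and start the cascade. All 8 tested members of this role, of 11 in the table, were higher in Model than in Blank (35.3% of all genes tested). Of these 8, 7 were lower in IsoL than in Model (25.1% of all genes). Among lectin-pathway genes without the pathway text, Fcna rose from Blank to Model (1.62 ± 0.18) and Colec11 fell (-1.17 ± 0.30). Colec11 was lower still in IsoL than in Model (-0.93 ± 0.38). Its mean was 1.58 FPKM in Blank, 0.63 in Model and 0.32 in IsoL, so the filter favoured its fall from Blank. C1qa, a chain of the recognition molecule C1q, stood at 25.5, 23.7, 23.1 and 22.7 CPM in Blank, at 169.6, 157, 153 and 179 in Model, and at 131, 95.9, 123 and 106 in IsoL. The 3 groups did not overlap, and IsoL lay nearer to Model than to Blank. The log2 fold change of C1qa was 2.79 ± 0.08 from Blank to Model, -0.53 ± 0.07 from Model to IsoL and 2.26 ± 0.08 from Blank to IsoL. C1qb (2.70 ± 0.07) and C1qc (2.67 ± 0.08), the other chains, rose from Blank to Model by nearly the same amount. The 3 genes sit side by side on chromosome 4, with gaps of 3616 and 2851 bases in the deposited coordinates. Per length, C1qa was the second most abundant tested member in Model and in IsoL, after C3, at 154 ± 11.2 and 103 ± 14.6 FPKM (SD, n = 4).

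The proteases of the C1 complex had smaller fold changes than C1q. C1ra changed by 1.34 ± 0.06 and C1s1 by 1.08 ± 0.06 from Blank to Model, and both were lower in IsoL than in Model, by -0.48 ± 0.06 and -0.30 ± 0.05. C1rb and C1s2, their tandem copies on chromosome 6, moved the same way, but the reads of all 4 genes are uncertain: 59.2% of the 50-base words of C1rb transcripts also occur in C1ra and 48.0% of those of C1ra in C1rb, with 26.9% for C1s2 in C1s1 and 21.8% for C1s1 in C1s2. Masp1, a protease of the lectin pathway, rose by 1.30 ± 0.08 and was not called between IsoL and Model (-0.09 ± 0.08, adjusted p = 0.34); it overlaps Rtp4, on the opposite strand, by 525 bases. Mbl1 and Mbl2, the mannose-binding lectins, had at most 1 read in any group.

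The 8 monocyte and macrophage markers checked (among them Adgre1, Cd14, Cd68, Csf1r, Fcgr1, Lyz2 and Mrc1) all rose from Blank to Model and were all lower in IsoL than in Model. Summed over the list, Blank libraries held 408 to 432 CPM, Model libraries 3104 to 3401 and IsoL libraries 1626 to 1866, and none of them was at 0 in Blank. Their part in the C1q result was not tested.

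Among the convertase genes, 2 rose and 2 fell from Blank to Model (35.3% and 34.9% of all genes tested). C3, the central component of all complement routes, stood at 182.7, 180.7, 182.4 and 176.7 CPM in Blank, at 1128, 1058, 1069 and 1143 in Model, and at 818, 737, 821 and 817 in IsoL. The groups did not overlap. C3 rose by 2.61 ± 0.05 from Blank to Model, was 1.38-fold lower in IsoL than in Model (log2 -0.46 ± 0.05) and stayed 4.42-fold above Blank in IsoL; it was the most abundant tested member per length in Model (208 ± 8.02 FPKM) and in IsoL (146 ± 8.15 FPKM). Cfb, factor B of the alternative pathway convertase, rose by 2.29 ± 0.10 and was lower in IsoL by -1.10 ± 0.09, a larger fall than that of C3. Gm20547, a gene model that overlaps Cfb on the same strand by 6107 bases, shares 73.0% of the 50-base words of Cfb. It is listed at 0 reads, so no reads were assigned to it. How reads in the shared part were counted is not given, so the Cfb counts are uncertain.

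C4b and Cfd went the other way. C4b, the C4 gene of the classical and lectin pathways, stood at 477, 471, 478 and 433 CPM in Blank, at 369, 356, 363 and 359.8 in Model, and at 266, 272, 328 and 250.2 in IsoL. Every Model library was below every Blank library, and every IsoL library below every Model library. The log2 fold changes were -0.36 ± 0.06 from Blank to Model and -0.37 ± 0.06 from Model to IsoL. C4b was the most abundant tested member per length in Blank, at 87.4 ± 4.01 FPKM, and the seventh in Model, at 61.9 ± 0.951 FPKM; 34.6% of its 50-base words also occur in C4a. Cfd, the protease factor D, known as adipsin for its expression in fat, was lower in Model than in Blank by -0.80 ± 0.13 and was not called between IsoL and Model (0.06 ± 0.14, adjusted p = 0.75). Hc, the mouse gene of C5, stayed below the filter with 33, 138 and 46 reads over the 4 Blank, Model and IsoL libraries.

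The 5 tested receptors, of 6 in the table, all rose from Blank to Model, were all lower in IsoL than in Model and all stayed above Blank in IsoL. The shares of all genes tested with these 3 calls were 35.3%, 25.1% and 36.5%. Of the 5 receptors, C5ar1 reached 1 FPKM in no Blank library, so its difference from Blank was built into its choice. C5ar1, the receptor of the attractant C5a, stood at 2.26, 1.71, 1.24 and 1.57 CPM in Blank, at 79.2, 74.6, 75.2 and 86.2 in Model, and at 27.2, 23.7, 29.2 and 21.3 in IsoL. C3ar1, the receptor of C3a, stood at 8.49, 8.52, 7.08 and 8.13 CPM in Blank, at 99.6, 94.7, 93.4 and 110.4 in Model, and at 44.0, 38.1, 39.9 and 41.7 in IsoL. Both kept the 3 groups apart. C5ar1 changed by 5.53 ± 0.13 from Blank to Model and by -1.64 ± 0.09 from Model to IsoL, and C3ar1 by 3.62 ± 0.08 and -1.28 ± 0.06. The chains of complement receptors 3 and 4 changed by like amounts: Itgam by 4.32 ± 0.08 and -1.64 ± 0.06, Itgb2 by 4.04 ± 0.08 and -1.76 ± 0.07, and Itgax, which shares 8.02% of its 50-base words with Itgad, by 3.27 ± 0.08 and -1.57 ± 0.07. Gm49368, a predicted gene that carries the pathway text, overlaps Itgam by 55809 bases on the same strand and shares 70.9% of its 50-base words with it, so its rise of 6.72 ± 0.41 and its fall of -2.45 ± 0.24 may come from the same transcripts. In turn, 66.3% of the 50-base words of Itgam occur in Gm49368, so the reads of Itgam are uncertain too.

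All 8 neutrophil markers checked also rose from Blank to Model and were lower in IsoL than in Model, with Ly6g and Ngp at 0 in every Blank library. Ly6g and Ngp thus passed the filter through the treated groups, so their rise was built in. The list summed to 43.1 to 88.0 CPM in Blank libraries, 3335 to 3661 in Model libraries and 433 to 571 in IsoL libraries. Receptor levels thus moved with both leukocyte marker lists, and the part of these cells in the receptor result was not tested.

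The regulators that protect host cells split by place. The 3 tested membrane regulators, of 5, were all lower in Model than in Blank (34.9% of all genes tested). None was higher in IsoL than in Model (24.1% of all genes). Cd55, which takes convertases apart, stood at 62.0, 66.3, 66.7 and 65.4 CPM in Blank, at 45.5, 38.5, 40.4 and 43.6 in Model, and at 40.8, 35.6, 40.1 and 47.4 in IsoL. Blank lay above all treated libraries, and Model and IsoL overlapped. Cd55, with 9.12% of its 50-base words in other genes, mostly Cd55b, changed by -0.63 ± 0.07 from Blank to Model and Cd59a, which blocks the pore, by -0.68 ± 0.07; between Model and IsoL neither was called (-0.03 ± 0.07 and -0.18 ± 0.07, adjusted p = 0.74 and 0.055), although Cd59a was called lower in IsoL with DESeq2 (adjusted p = 0.046), with RLE or no scaling, on TPM and FPKM values, and without Blank replicate 2 or Model replicate 3. Cd46, a cofactor for C3b and C4b cleavage whose mouse expression is known mainly from testis, had low levels, at 1.52 ± 0.153 FPKM in Blank, and fell by 0.53 and then by 0.44 on the log2 scale, with SEs of 0.12 and 0.13; 13.5% of its 50-base words occur in A330023F24Rik, on the opposite strand. Markers of resident tissue did not all move the same way from Blank to Model. Krt5, Krt10 and Lor fell while Krt1, Krt14 and Flg rose, and all 5 skeletal muscle and all 3 tested cartilage markers fell. The keratinocyte list summed to 15669 to 16713 CPM in Blank libraries, 11226 to 13745 in Model libraries and 25440.3 to 28891 in IsoL libraries, and all 6 of its genes were higher in IsoL than in Model. The muscle list summed to 2608 to 2843, 1285 to 1540.3 and 1289 to 2032 CPM, and the cartilage list to 789.6 to 851, 429 to 473 and 401 to 576 CPM, in the same order; none of these markers was at 0 in Blank, and their part in the falls of the membrane regulators, C4b, Cfd and F3 was not tested.

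Among the soluble regulators, Serping1, the C1 inhibitor, stood at 117.7, 125.0, 128 and 112 CPM in Blank, at 234.8, 229.9, 236 and 240.1 in Model, and at 182.5, 165, 194 and 179 in IsoL. The groups did not overlap. Serping1 rose by 0.96 ± 0.05 from Blank to Model and was lower in IsoL than in Model by -0.39 ± 0.05. Clu, clusterin, was slightly lower in Model (-0.15 ± 0.06, adjusted p = 0.038), a call that was lost with DESeq2, with RLE scaling and with another filter (filterByExpr), and without any 1 of Blank replicates 1, 3 and 4 or Model replicates 2, 3 and 4 (adjusted p up to 0.089). Vtn, vitronectin, was not called between Model and Blank (0.27 ± 0.17) and was lower in IsoL than in Model (-0.62 ± 0.18). The fibroblast markers moved alongside: 5 of 6 rose from Blank to Model and all 6 were lower in IsoL than in Model, their sum being 5811 to 6258 CPM in Blank libraries, 7931 to 8400 in Model libraries and 6254 to 7024 in IsoL libraries, and their part in these results was not tested.

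Genes of the terminal pathway, which builds the pore, were sparse. C6 reached 1 FPKM only in Model libraries; it stood at 0.607, 0.682, 0.236 and 0.290 CPM in Blank, at 4.06, 3.63, 3.80 and 4.02 in Model, and at 1.04, 0.666, 0.755 and 0.635 in IsoL. Model stood apart from the overlapping Blank and IsoL libraries, with 3.06 ± 0.28 against Blank and -2.31 ± 0.25 for IsoL against Model. C8g, which overlaps Fbxw5 on the opposite strand by 970 bases, was called in none of the 3 comparisons, and the remaining 4 genes of this role were below the filter, C7 with 93, 59 and 72 reads and C9 with 112, 55 and 38 reads over the Blank, Model and IsoL libraries.

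**Figure D2:**
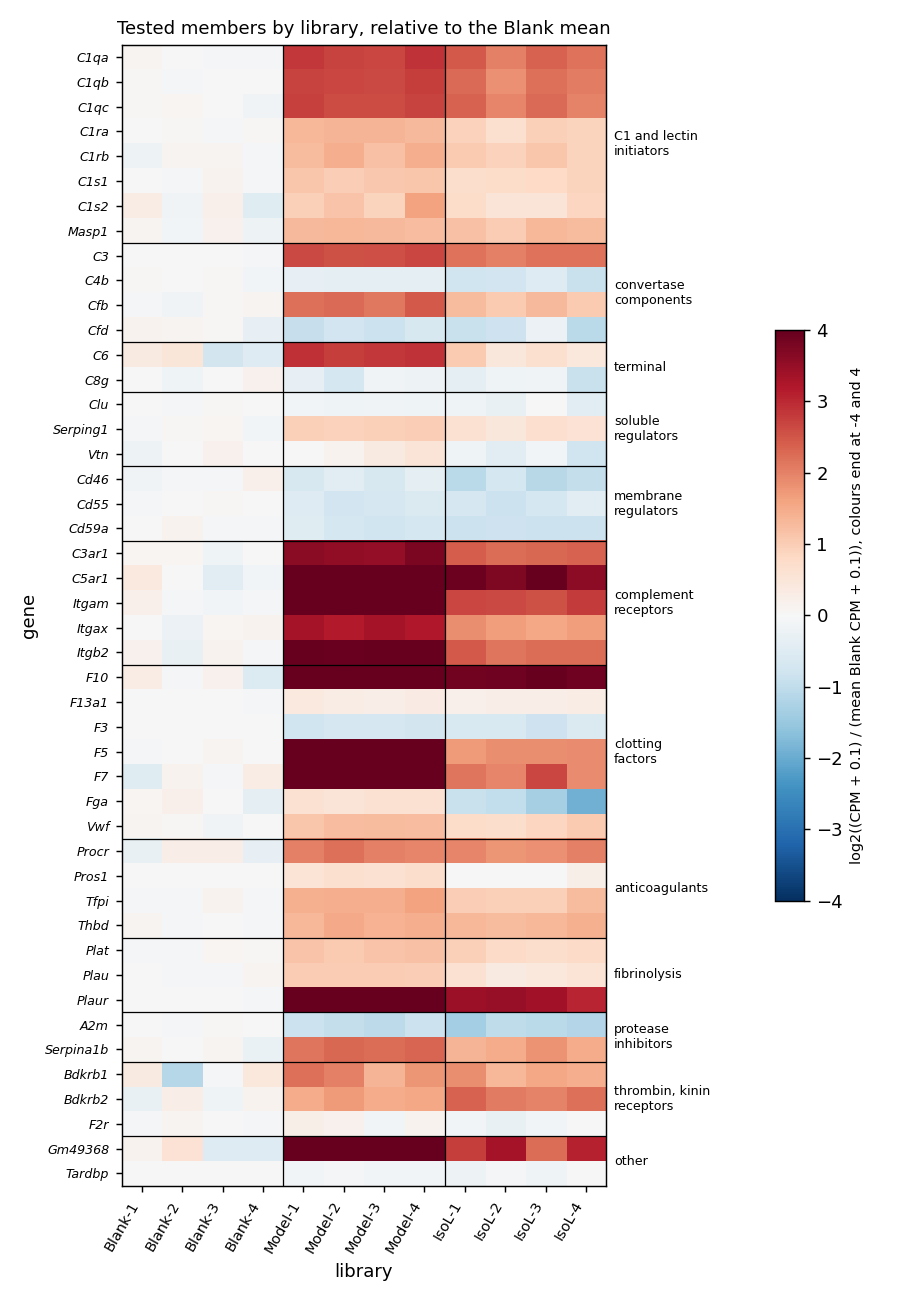
Level of 46 tested members in each of the 12 libraries as log2((CPM + 0.1) / (mean Blank CPM + 0.1)), grouped by role, with colours ending at -4 and 4. The receptors and F10, F5, F7 and Plaur are darkest in the 4 Model libraries, the 3 membrane regulators are pale blue in all Model and IsoL libraries, and the libraries of a group look alike.

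On the coagulation side, 17 of 20 tested genes with a role rose from Blank to Model and 2, F3 and A2m, fell (35.3% and 34.9% of all genes tested). The 17 include Bdkrb1, Bdkrb2, F10, F5 and F7, which reached 1 FPKM in no Blank library, so their rise was built into their choice. From Model to IsoL 14 fell and 1 rose (25.1% and 24.1% of all genes). The 14 include F5, which reached 1 FPKM in Model libraries only. F3, tissue factor, the cell-surface trigger of clotting, ran opposite to its partners F7 and F10. F3 stood at 184.4, 189.3, 187.7 and 188.6 CPM in Blank, at 109.0, 117, 117 and 112 in Model, and at 122, 123, 106 and 126 in IsoL. Every Blank library was above every other library, and Model and IsoL overlapped. The change was -0.72 ± 0.05 from Blank to Model (1.65-fold lower, adjusted p = 1.8e-11) and 0.07 ± 0.05 from Model to IsoL (adjusted p = 0.29), or -0.03 on log2(TPM + 1) values; without IsoL replicate 3 it was called higher in IsoL (0.12, adjusted p = 0.029). Despite this fall, F3 remained the clotting factor with the highest level per length, at 79.5 ± 1.14 FPKM in Blank and 43.8 ± 1.47 in Model, where F10 reached 17.6 ± 0.738 and F7 8.15 ± 0.475 FPKM.

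F13a1, the fibrin cross-linking chain that macrophages and platelets carry, was high in every group, at 34.8 ± 1.14, 39.4 ± 1.49 and 36.6 ± 1.44 FPKM in Blank, Model and IsoL; it rose by 0.32 ± 0.04 from Blank to Model, or by 0.085 on log2(TPM + 1) values, where the call was lost (adjusted p = 0.088). Vwf, the platelet-binding protein of endothelium, rose by 1.21 ± 0.07 and was lower in IsoL than in Model by -0.37 ± 0.07. Of 10 platelet markers, 5 were tested, and these rose from Blank to Model and were lower in IsoL than in Model. The list summed to 32.4 to 38.1 CPM in Blank libraries, 153 to 172 in Model libraries and 87.1 to 104 in IsoL libraries, and none of the 10 was at 0 in Blank. The 5 platelet markers below the filter had few reads, with Gp1ba at 101, 80 and 77 and Gp1bb at 32, 25 and 61 in Blank, Model and IsoL, and Gp9, Gp6 and Treml1 at 3 to 16 in any group. The part of platelets in these results was not tested.

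The fibrinogen chains were near the limit of detection. Fga stood at 3.53, 3.86, 3.30 and 2.56 CPM in Blank, at 5.10, 4.77, 5.09 and 5.09 in Model, and at 1.73, 1.64, 1.26 and 0.808 in IsoL. IsoL was below both other groups, with -1.88 ± 0.21 against Model and -1.28 ± 0.21 against Blank, and Model was slightly above Blank (0.59 ± 0.18, adjusted p = 0.0058), a call lost on quantile-scaled, log2(TPM + 1) and log2(FPKM + 0.1) values. Fgb had 0 reads in Blank, 9, 6, 8 and 25 in the Model libraries and 1 in IsoL, at least 18.6-fold higher in Model than in Blank against a floor of 3 reads over the group. Fgg had 1, 41 and 2 reads over the Blank, Model and IsoL libraries. The 9 hepatocyte markers, of which Fgb and Serpinc1 are themselves members, were low, and 1 of them passed the filter: Cyp2e1, with 351, 127 and 116 reads in Blank, Model and IsoL, which fell from Blank to Model (-1.24 ± 0.22). Among the others, Alb was at 78, 74 and 38 reads, Apoa1 at 7, 54 and 10 and Apoa2 at 0, 23 and 3; the list summed to 5.66 to 8.81, 5.84 to 7.75 and 3.23 to 4.22 CPM in the 3 groups, and its part in these results was not tested. Prothrombin (F2), made in the liver, had 4, 2 and 1 reads in Blank, Model and IsoL, factor XI (F11) 3, 1 and 0, and F13b none.

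The 4 tested anticoagulants, of 8, all rose from Blank to Model (35.3% of all genes tested). Thbd, thrombomodulin, which turns thrombin towards protein C, stood at 28.0, 24.9, 25.5 and 25.0 CPM in Blank, at 65.1, 74.5, 67.7 and 71.4 in Model, and at 65.5, 61.9, 65.4 and 69.5 in IsoL. Both treated groups were above Blank and overlapped each other. Thbd changed by 1.43 ± 0.06 from Blank to Model and was not called between Model and IsoL (-0.09 ± 0.06, adjusted p = 0.21), but was called lower in IsoL with no scaling factors (adjusted p = 0.039), on log2(TPM + 1) values (0.016) and on log2(FPKM + 1) values (0.046). Procr, the endothelial protein C receptor, changed by 2.07 ± 0.12 from Blank to Model and was not called between Model and IsoL (-0.15 ± 0.10). Tfpi, the inhibitor of the tissue factor complex, rose by 1.49 ± 0.08 and was lower in IsoL than in Model by -0.43 ± 0.08. Pros1, protein S, rose by 0.62 ± 0.05 and was lower in IsoL by -0.57 ± 0.05; against Blank, IsoL was not called (0.06 ± 0.05), but it was called lower with no scaling factors (-0.14, adjusted p = 0.018), on log2(TPM + 1) values (-0.27, adjusted p = 0.00039) and on both FPKM scales (adjusted p = 0.024 and 0.023). Endothelial markers moved too: 6 of 7 rose from Blank to Model and were lower in IsoL than in Model, with summed levels of 168 to 182, 512 to 540.0 and 315 to 365 CPM in Blank, Model and IsoL, and their part in these results was not tested.

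All 3 tested fibrinolysis genes rose from Blank to Model (35.3% of all genes tested) and were lower in IsoL than in Model (25.1%). Plau, urokinase, changed by 1.01 ± 0.06 and -0.52 ± 0.06, and Plat, tissue plasminogen activator, by 1.13 ± 0.07 and -0.32 ± 0.07, both far less than the receptor gene Plaur. A2m, a general protease inhibitor, was the largest fall from Blank to Model among the members, at -0.94 ± 0.06. Serpina1b, an antitrypsin gene, rose by 2.27 ± 0.12 and was lower in IsoL by -0.71 ± 0.10, with 22.5% of its 50-base words shared with Serpina1a.

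Bdkrb2 was the 1 tested member called higher in IsoL than in Model. This gene, the bradykinin receptor present in resting tissue, stood at 1.71, 2.56, 1.89 and 2.32 CPM in Blank, at 6.13, 7.15, 6.10 and 6.43 in Model, and at 11.3, 9.32, 8.69 and 10.2 in IsoL. The 3 groups did not overlap, and IsoL was the highest. Bdkrb2 rose by 1.61 ± 0.15 from Blank to Model and by a further 0.61 ± 0.13 from Model to IsoL (1.53-fold, adjusted p = 0.00032 for Model to IsoL). Bdkrb2 reached 1 FPKM in no Blank library, so its difference from Blank was built into its choice. Bdkrb1, the inducible receptor, whose gene follows Bdkrb2 on chromosome 12 at a distance of 7847 bases, rose by 2.04 ± 0.33 and was not called between Model and IsoL (-0.32 ± 0.27). F2r, the thrombin receptor, was not called between Model and Blank (0.12 ± 0.08) and was lower in IsoL than in Model (-0.23 ± 0.08, adjusted p = 0.016), although these libraries overlapped and the call was lost on quantile-scaled values (adjusted p = 0.079), without Model replicate 1 (0.067) and without IsoL replicate 2 (0.066).

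**Figure D3:**
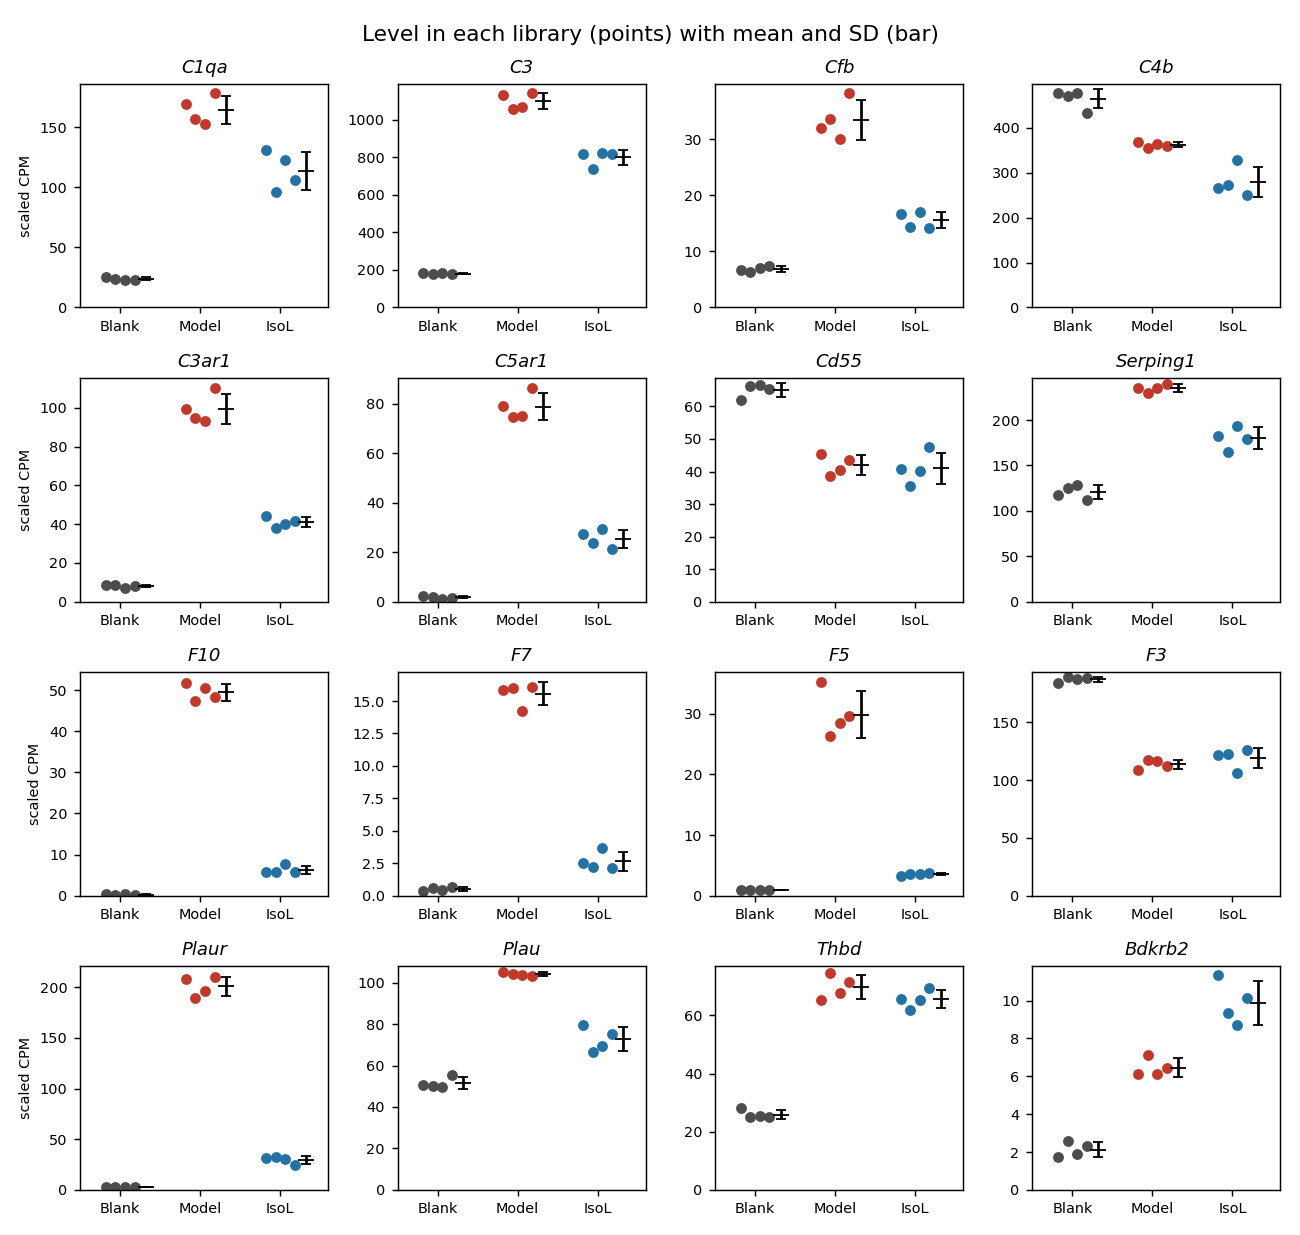
TMM-scaled CPM of 16 members in each library (points) with the mean and SD of the 4 libraries of each group (bars); every vertical axis starts at 0. C4b falls in steps from Blank to IsoL, Cd55 and F3 are highest in Blank, Thbd overlaps between Model and IsoL, Bdkrb2 is highest in IsoL, and the other genes peak in Model.

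Tardbp was the tested member with no role in either cascade: it encodes the RNA-binding protein TDP-43, lies opposite Masp2 with an overlap of 3118 bases, and was called in none of the comparisons. Per length, the tested members spanned 0.010 to 87.4 FPKM in Blank, and the 3 highest there were C4b, F3 and Serping1. In Model the 3 highest were C3, C1qa and C1qb.

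**Figure D4:**
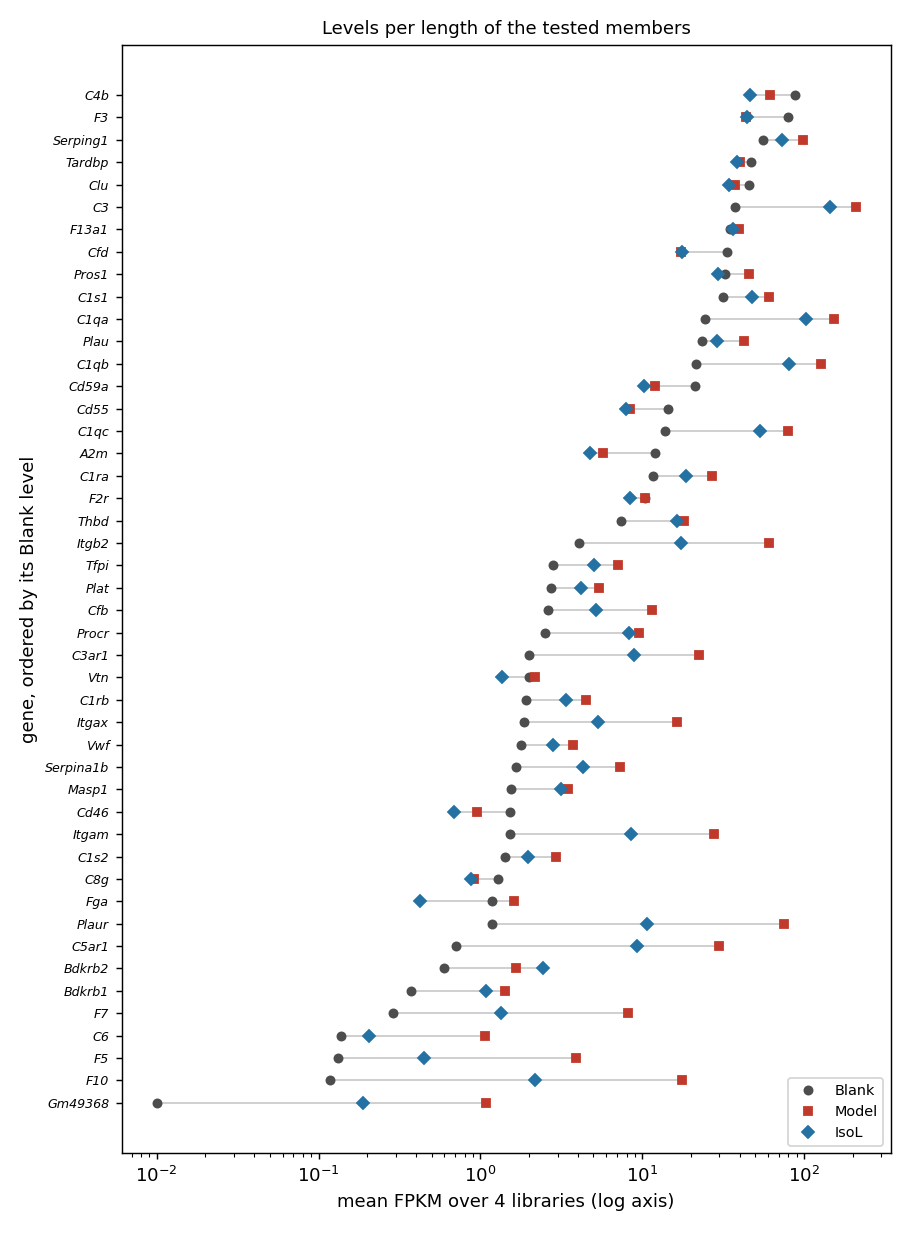
Mean FPKM over 4 libraries of 46 tested members in Blank, Model and IsoL on a log axis, ordered by the Blank level. The widest gaps between Blank and Model are at the low end, where F10 goes from 0.117 to 17.6 FPKM, and C3 reaches the highest level, 208 FPKM in Model. Members under 1 FPKM in every Blank library passed the filter only if they were higher in another group. Gaps at the low end were therefore built in.

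Members below the filter add few reads. Of these 60 genes, 28 had 1 to 49 reads over the 12 libraries and 22 had 50 or more. When the filter was lifted, 10 of the 50 with reads were called higher in Model than in Blank, beside 19.95% of the 35185 genes in that fit, among them Hc, Fgb, Fgg and Cfi, the protease factor I with 6, 48 and 33 reads in Blank, Model and IsoL, and 4 were called lower (C8b, C9, F8 and Gm7298), beside 17.8%; these counts are near or below the share among all genes. In that fit 0 of them were higher in IsoL than in Model, beside 11.16% of all genes, and 4 (Cpb2, Fgb, Fgg and Hc) were lower, beside 12.59%.

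Genes of both cascades that lack the pathway text gave a mixed picture. Of 6 tested complement-related genes, 5 rose from Blank to Model, including Cfp, properdin (2.76 ± 0.08), and C5ar2, the other C5a receptor (6.64 ± 0.42), and 5 were lower in IsoL than in Model. C5ar2 averaged 0.0175 FPKM in Blank, 1.77 in Model and 0.65 in IsoL. It passed the filter through the treated groups, so its rise was built in. Of 13 tested coagulation-related genes, 7 rose and 4 fell from Blank to Model, and 8 were lower in IsoL than in Model. The 7 rises include Tfpi2, with a mean of 0.175 FPKM in Blank and 7.56 in Model, which also passed the filter through the treated groups. Beside the counts of both lists, 35.3% of all genes tested rose and 34.9% fell from Blank to Model. From Model to IsoL, 25.1% of all genes fell. Vkorc1 and Ggcx, which carry out the vitamin K step that factors VII and X need, were both lower in Model than in Blank, by -0.29 ± 0.09 and -0.36 ± 0.09. C2, the partner of C4 in the convertase, rose by 0.71 ± 0.08 and was lower in IsoL by -0.84 ± 0.08. Serpinb2, an intracellular inhibitor of urokinase, was not called between Model and Blank (-0.06 ± 0.09) and was higher in IsoL than in Model (0.40 ± 0.09).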

How the data were processed

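Per gene and library, the deposited table gives read counts and FPKM made by the authors; fastp 0.22.0, HISAT2 2.1.0 and HTSeq 0.9.1 are named in the submitters' processing notes, and the genome build and the use of strand in counting are not given in the sources used here. Counts, exon length and library total gave back 100% of the deposited FPKM within 0.01. Members were the rows whose pathway text contains ko04610; the members, role lists and marker lists were chosen with earlier results of these data known, and the roles of 18 members outside those lists were set after the table was seen. In R 4.3.3, counts of genes that reached 1 FPKM in 4 or more of the 12 libraries were fitted in 1 model with 3 group means (edgeR 4.0.16, TMM scaling, quasi-likelihood test), with Benjamini-Hochberg adjustment over all 15403 genes. Alternatives used DESeq2 1.42.0, limma 3.58.1, other filters and scalings, and each library left out; the code was tested on simulated data. The text names the 8 largest called rises and falls per comparison, a set panel and the leading members of each role. Members were compared with other genes by shared 50-base words of GENCODE M21 transcripts and by overlap in the deposited coordinates; the larger cases are given beside the gene. The libraries held 13884927 to 18771831 counts without molecular identifiers, so the floor of 3 counts covers counting error only. A few genes are not reported here by name or drawn in the figures, but are included in the counts and marker sums.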

Additional observations from a re-analysis of the deposited data

Results flagged for a closer look

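In 14 of 126 groups of 4 libraries (42 named members, 3 groups each), 1 library stood apart from the other 3 by Dixon's criterion, which chance alone meets in about 5% of groups. In Blank, C4b in library 4 was at 433 CPM (others 471 to 478), F13a1 in library 4 at 208 (others 222 to 223) and Plau in library 4 at 55.6 (others 49.8 to 50.7). Also in Blank, Cd59a in library 2 was at 39.1 CPM (others 34.2 to 35.0), Itgam in library 1 at 8.27 (others 6.66 to 6.82) and Tfpi in library 3 at 15.7 (others 13.6 to 13.9). In Model, F7 in library 3 was at 14.2 CPM (others 15.9 to 16.1), Fga in library 2 at 4.77 (others 5.09 to 5.10) and Gm49368 in library 4 at 6.03 (others 5.02 to 5.12). In IsoL, C3 in library 2 was at 737 CPM (others 817 to 821), F10 in library 3 at 7.81 (others 5.70 to 5.87) and F5 in library 1 at 3.28 (others 3.63 to 3.69). IsoL library 4 held the remaining flags, with Pros1 at 144 CPM (others 122 to 126) and Tfpi at 34.3 (others 27.7 to 28.6).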

How the results depend on the processing

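With the replicate block (the library number as a term) the counts stayed at 36 and 8 members higher and lower in Model than in Blank, 1 and 35 in IsoL than in Model, and 33 and 9 in IsoL than in Blank. Deviations of same-numbered libraries from their group means had correlations of -0.126 to 0.0298. The labels do not say whether the number ties libraries across groups, and such correlations cannot exclude a shared batch. With each library left out in turn, these counts ranged over 36 to 37, 7 to 8, 1 to 2, 33 to 36, 33 to 34 and 9 to 10; without IsoL replicate 3, F3 was also called higher in IsoL than in Model. Members lower in IsoL than in Blank numbered 14 of 48 with no scaling factors (47.1% of all genes) and on log2(TPM + 1) (55.6%), log2(FPKM + 1) (46.6%) and log2(FPKM + 0.1) (46.5%) values, and 16 of 98 with no filter (17.6%). With no scaling factors the median of all genes moved from -0.01 to -0.15 (Model against Blank) and from 0.02 to -0.18 (IsoL against Blank), and on log2(TPM + 1) values to -0.22 and -0.29, so values near 0 turned sign. For F2r, Model against Blank, they were -0.019 (no scaling), -0.016 (quantile), -0.11 (TPM), -0.019 and -0.021 (FPKM + 1 and + 0.1), and for Vtn -0.038 (quantile). For IsoL against Model they were 0.011 for Cd55 (quantile; -0.11 to 0.028 with a library left out), -0.058 (TPM), -0.015 and -0.017 (FPKM) for Cfd (-0.14 without IsoL replicate 3, up to 0.16 without others) and -0.030 for F3 (TPM). For IsoL against Blank they were -0.065 for F13a1 (TPM) and, for Pros1, -0.14 (no scaling), -0.078 (quantile), -0.27 (TPM), -0.13 and -0.14 (FPKM), with -0.0029 to 0.081 when a library was left out. Of the other values of named members, other settings gained a call in 23 cases and lost one in 14, and leaving out a library gained 8 and lost 10; the cause was not tested. Members under 1 FPKM rest on few reads, which limits their folds.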

Other observations

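The spread between libraries of a group differed. The median coefficient of variation of the scaled CPM over the 48 tested members came to 7.64% for Blank libraries, 5.43% for Model libraries and 10.5% for IsoL libraries.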
